A study of Mus musculus with 6 samples.

Results

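The miRNAs described here are the 5p arms of the miR-99/100 and miR-125 families, which the tables list as mmu-miR-99a-5p, mmu-miR-99b-5p, mmu-miR-100-5p, mmu-miR-125a-5p and mmu-miR-125b-5p. They are 5 of the 1964 mature miRNA rows, and of the 16310 rows of all RNAs, in small RNA tables of exosomes from cultured mouse skin cells. They were chosen by name, with the knowledge that close relatives among them differed in opposite directions between the cell types, so their differences are given as descriptions without a test. All 5 passed the filter on low counts, under which 325 mature miRNAs were tested.

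Exosomes are vesicles of endosomal origin that cultured cells shed. One group of 3 libraries came from epidermal stem cells (ESC) of the dorsal skin of C57BL/6 mice aged 3 weeks, selected by rapid adhesion to collagen IV and kept in keratinocyte serum-free medium. The other 3 libraries came from dermal fibroblasts (Fb) of the dorsal skin of db/db mice aged 14 weeks, which are diabetic through a mutant leptin receptor, grown with fetal bovine serum and moved to serum-free medium before collection. The strain label reads C57BL/6 for all 6 libraries, and db/db is named in the protocol text only. Cell type, strain, age and medium changed together and cannot be told apart, and the labels tie no library to an animal, which means that p-values reflect only how much these libraries vary, a spread that may be technical.

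miRNAs are short RNAs that lower the output of messenger RNAs matching their seed, bases 2 to 8 of the mature strand. A miRNA gene is transcribed as a hairpin, from whose arms the 5p and the 3p strand are cut, and usually 1 of the arms is kept as the guide. miR-125 is the vertebrate relative of lin-4, which like let-7 was found as a timer of development in worms, and miR-99/100 belongs to one of the oldest miRNA families of animals, to which miR-10 is related. In mammals a miR-99/100 gene, a let-7 gene and a miR-125 gene lie together in 3 copies of an ancestral cluster. miR-125 is known for repressing Lin28, an inhibitor of let-7 maturation, and miR-99/100 for repressing components of mTOR signalling.

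The 5p strands are shown with the seed in capitals, because the seeds place them in 2 target families although their genes lie in 3 clusters. The sequences are those of RefSeq (GRCm38.p6), where all 5 names were matched.
miR-99a-5p: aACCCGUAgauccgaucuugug
miR-99b-5p: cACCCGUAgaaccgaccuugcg
miR-100-5p: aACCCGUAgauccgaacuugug
miR-125a-5p: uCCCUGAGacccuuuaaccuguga
miR-125b-5p: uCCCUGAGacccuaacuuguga

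Counted from the 5′ end, miR-99a-5p and miR-100-5p differ by 1 substitution, U16A. From miR-99a-5p to miR-99b-5p there are 4 substitutions, A1C, U11A, U16C and U21C, none of them in the seed. miR-125a-5p has 24 bases and miR-125b-5p 22, with the first 13 bases in common. The seed CCCUGAG also occurs in miR-351-5p, miR-6367 and miR-6394 of the RefSeq table, and ACCCGUA in no other miRNA there.

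The 3p strands are shown because they tell the clusters apart. The 2 genes of miR-125b make the same 5p strand, and only their 3p strands name the gene.
miR-125a-3p: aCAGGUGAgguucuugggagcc
miR-125b-1-3p: aCGGGUUAggcucuugggagcu
miR-125b-2-3p: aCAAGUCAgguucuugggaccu
miR-99b-3p: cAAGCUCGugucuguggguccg
From miR-125b-1-3p to miR-125b-2-3p there are 5 substitutions, G3A, G4A, U7C, C11U and G20C. The hairpin of Mir125b-1 is given with both mature strands in capitals, the 5p strand first.
Mir125b-1: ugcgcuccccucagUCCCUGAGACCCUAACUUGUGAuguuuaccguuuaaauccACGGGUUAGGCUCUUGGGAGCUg

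The most compact cluster lies on the plus strand of chromosome 17 (build GRCm38, GENCODE M21 annotation), with Mir99b at chr17:17830188-17830257, Mirlet7e at chr17:17830352-17830444 and Mir125a at chr17:17830812-17830879. Mir99b and Mirlet7e lie in an intron of Spaca6, and Mir125a overlaps an annotated exon of it. On the plus strand of chromosome 16, Mir99a (chr16:77598936-77599000) and Mirlet7c-1 (chr16:77599657-77599750) lie close together, and Mir125b-2 (chr16:77646273-77646343) starts 47.3 kb from the start of Mir99a. All 3 lie in introns of the long non-coding gene Mir99ahg. On the plus strand of chromosome 9, Mir100 (chr9:41531425-41531504), Mirlet7a-2 (chr9:41536716-41536811) and Mir125b-1 (chr9:41581926-41582002) spread over 50.5 kb in introns of the long non-coding gene 3110039I08Rik. These host genes were not analysed here. Gm48742, a long non-coding gene on the opposite strand with an exon over Mir100, had 82.1, 145 and 133 estimated reads in the ESC libraries and 145, 14.3 and 18.2 in the Fb libraries. Whether reads were assigned by strand was not stated, so reads of Mir100 and Gm48742 cannot be told apart with certainty.

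**Figure D1:**
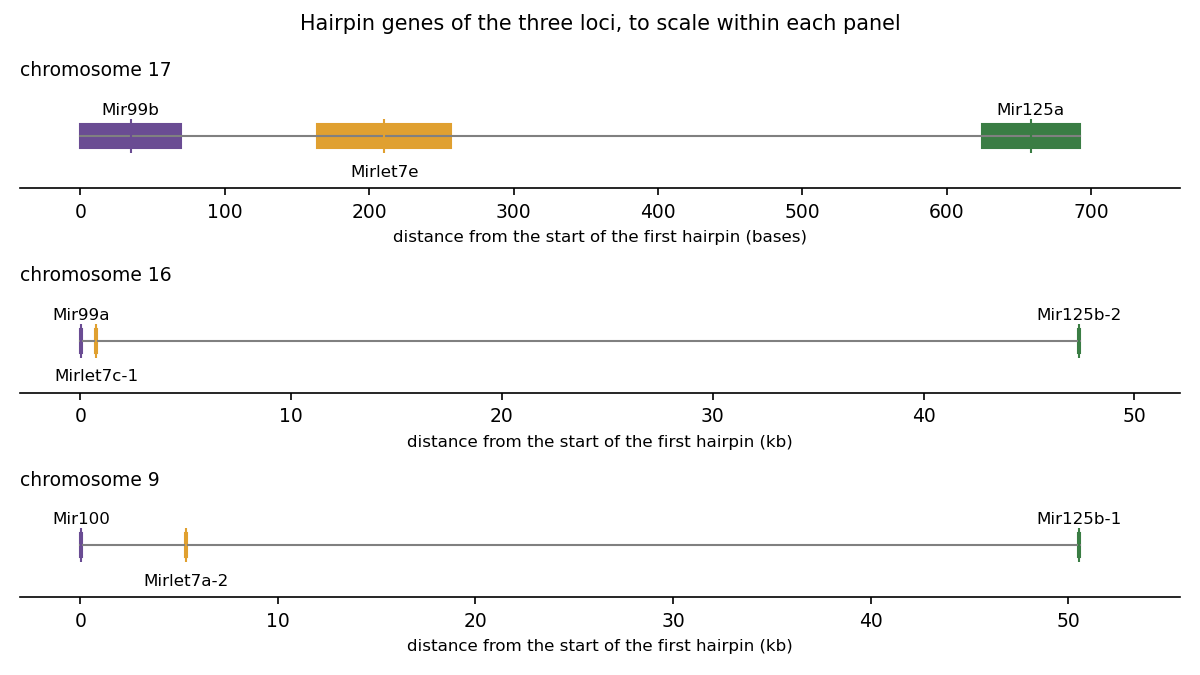
Map of the hairpin genes of each cluster, with the distance from the start of the first hairpin on the x axis (bases for chromosome 17, kb for chromosomes 16 and 9). Purple boxes are miR-99/100 genes, yellow boxes let-7 genes and green boxes miR-125 genes. The 3 genes of chromosome 17 lie within 0.7 kb. Mir125b-2 and Mir125b-1 start 47.3 kb and 50.5 kb from the starts of Mir99a and Mir100.

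The ESC libraries held 9894485 to 11149046 assigned reads, of which 13.3% to 14.7% were of mature miRNAs, and the Fb libraries 6914504 to 8691350, of which 0.613% to 2.05% were. Levels are given in CPM, counts per 1000000 mature miRNA reads of the library, unless another total is named. The members are 22 to 24 bases long, so levels were compared per strand without a correction for length. Fb replicate 1 had the fewest miRNA reads, 49019, where 3 reads are worth 61.2 CPM. The 7 epithelial marker miRNAs all had reads in both groups and summed to 59872 to 74600.0 CPM for ESC and to 7457 to 14174 CPM for Fb. The 6 mesenchymal markers all had reads in both groups and summed to 175 to 209 and 194836 to 303454 CPM. Blood-cell markers were scarce, at 0.957 to 4.60 and 36.5 to 143 CPM over 6 miRNAs, with miR-142a-3p at 0 in both groups, miR-223-3p at 0 in ESC and miR-150-5p at 0 in Fb. Endothelial markers summed to 77.1 to 119.9 and 109 to 347 CPM, muscle markers to 123 to 161 and 466 to 1714 CPM, and miR-122-5p was at 6.09 to 7.90 and 0 to 5.83 CPM. The part of these other cell types in the values below was not tested.

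The 5 miRNAs together held 2.13% ± 0.0826 (SD, n = 3) of the mature miRNA reads of the ESC libraries, against 1.06% ± 0.210 (SD, n = 3) for Fb. Vesicles from fewer cells of a type and less of the RNA in each vesicle cannot be told apart in such bulk libraries. Of the 5p reads of the miR-99/100 family alone (miR-99a, miR-99b and miR-100), 96.3% to 96.5% were miR-99b-5p in ESC exosomes. In Fb exosomes this share was 67.5%, 56.8% and 52.8% in replicates 1, 2 and 3. miR-100-5p made up 1.85% to 1.95% of the family in ESC and 25.6% to 33.8% in Fb exosomes, and miR-99a-5p 1.51% to 1.80% and 6.89% to 15.9%.

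miR-99b-5p, from chromosome 17, was the most abundant of the 5 in every library. Its level was 18072, 18808 and 19566 CPM in ESC replicates 1 to 3, and 7793, 4315 and 5423 CPM in Fb replicates 1 to 3. Every ESC library lay above every Fb library, and the mean was 3.22 times that of Fb exosomes (18815 ± 747 against 5844 ± 1777 CPM, SD, n = 3). By its mean level it ranked as number 13 among mature miRNAs in ESC and as number 35 in Fb exosomes.

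miR-125a-5p, from the same cluster, followed the same direction at a lower level. It was at 1603, 1801 and 1728 CPM in the ESC libraries and at 632, 359.6 and 682 CPM in the Fb libraries, again without overlap. The Fb values rest on 31, 64 and 81 reads, and for replicate 2 the exact 95% binomial interval, which covers counting error only, was 277 to 459 CPM. The mean ratio of ESC to Fb was 3.07. Within a library miR-99b-5p had 10.4 to 11.3 times the reads of miR-125a-5p in ESC exosomes and 12.3, 12.0 and 7.95 times in Fb replicates 1 to 3, so the ranges of this ratio overlapped.

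miR-100-5p, from chromosome 9, went the other way. It was at 352, 381 and 375 CPM in the ESC libraries and at 2958, 2068 and 3469 CPM in the Fb libraries, on 145, 368 and 412 reads. All 3 Fb libraries lay above the ESC libraries, and the Fb mean was 7.67 times the ESC mean (2832 ± 709 against 369 ± 15.0 CPM, SD, n = 3).

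miR-99a-5p, from chromosome 16, which differs from miR-100-5p by 1 base, had the same direction with a smaller difference. It was at 329.5, 293 and 366 CPM in the ESC libraries and at 796, 1208 and 1373 CPM in the Fb libraries. The groups did not overlap, and the Fb mean was 3.41 times the ESC mean. miR-100-5p and miR-99a-5p were close to equal in ESC exosomes, with 1.02 to 1.30 reads of the first for each of the second, and in Fb exosomes this ratio was 3.72, 1.71 and 2.53. Estimated counts may divide reads of near-identical strands, so the 2 were also summed: the sum was at 699 ± 36.8 CPM for ESC and at 3957 ± 803 CPM for Fb exosomes (SD, n = 3).

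miR-125b-5p, which the genes on chromosomes 9 and 16 share, was the scarcest of the 5 in ESC exosomes. It was at 113, 131 and 80.8 CPM in the ESC libraries and at 224, 365 and 218 CPM in the Fb libraries, where it had 11, 64.9 and 25.9 estimated reads. The groups did not overlap, but the exact 95% interval of Fb replicate 1 was 112 to 401.5 CPM and reached into the ESC values. The Fb mean was 2.49 times the ESC mean.

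**Figure D2:**
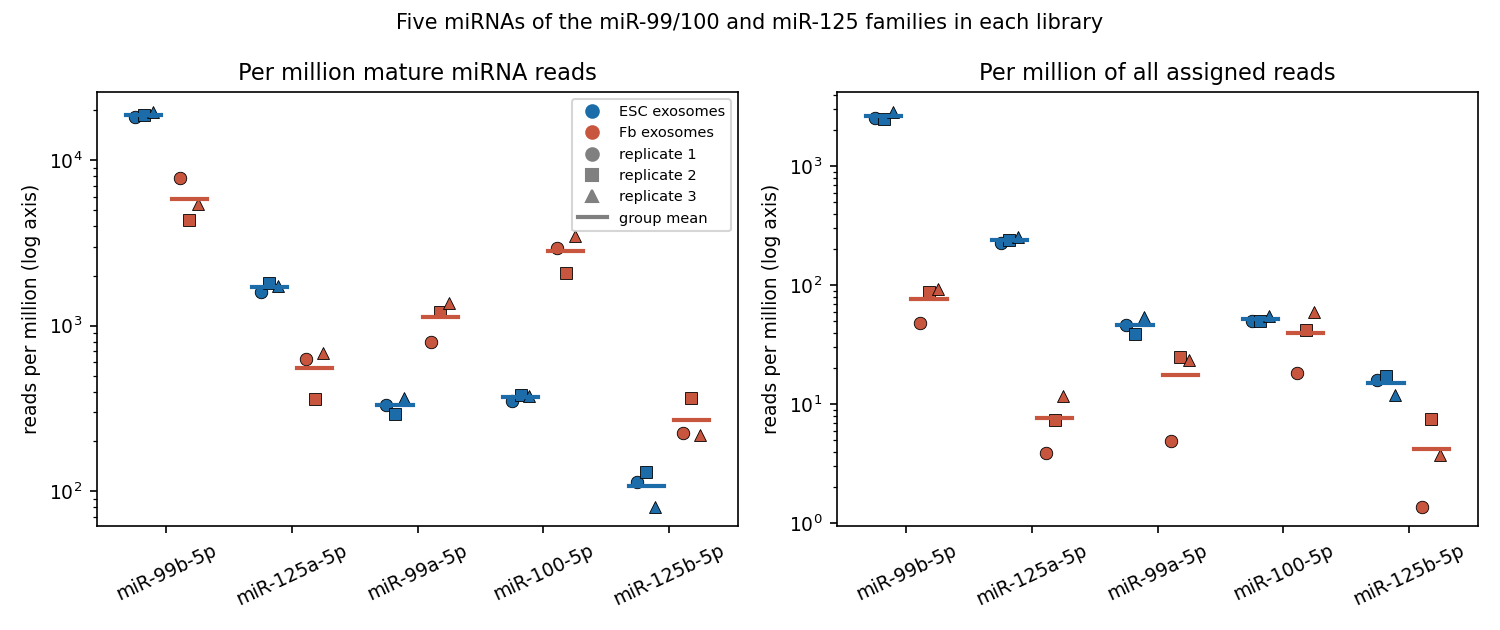
Level of each miRNA in every library on log axes, as CPM of mature miRNA reads (left) and CPM of all assigned reads (right); blue points are ESC and red points Fb libraries, the shape gives the replicate and the bars are group means. On the left miR-99b-5p and miR-125a-5p lie higher in ESC and the other 3 higher in Fb exosomes; on the right all but miR-100-5p lie higher in every ESC library.

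In ESC exosomes the levels ran from miR-99b-5p through miR-125a-5p, miR-100-5p and miR-99a-5p to miR-125b-5p. Only the ranges of the neighbours miR-100-5p and miR-99a-5p overlapped there. In Fb exosomes the order was miR-99b-5p, miR-100-5p, miR-99a-5p, miR-125a-5p and miR-125b-5p, and only miR-125a-5p (359.6 to 682 CPM) and miR-125b-5p (218 to 365 CPM) overlapped. miR-125a-5p had 13.8 to 21.4 times the reads of miR-125b-5p in ESC exosomes and 2.82, 0.986 and 3.12 times in Fb replicates 1 to 3.

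Log2 fold changes of ESC over Fb, with their standard errors (SE), were taken from an edgeR count model over all 325 miRNAs, scaled by TMM factors, which set the bulk of miRNAs as the reference. They were 2.13 (SE 0.27) for miR-99b-5p and 2.04 (SE 0.33) for miR-125a-5p. The values were -2.53 (SE 0.32) for miR-100-5p, -1.40 (SE 0.37) for miR-99a-5p and -0.98 (SE 0.38) for miR-125b-5p, against a median of -0.11 over the 325. Without Fb replicate 2, its highest Fb library, miR-125b-5p was at -0.34 (SE 0.40). By CPM, 2 of the 5 were higher in every ESC library and 3 in every Fb library. Of all 325 miRNAs, 60.9% had groups without overlap, 24.9% higher for ESC and 36% higher for Fb, and since the members were chosen on this contrast nothing is read from their count.

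These directions are those of shares of miRNA reads. For miR-99a-5p and miR-125b-5p they turned when all assigned reads were the total, of which miRNAs were a larger part in ESC exosomes. That turn holds for CPM, which has no TMM factors. With all RNAs fitted together and TMM factors, their log2 fold changes stayed negative, at -0.90 (SE 1.12) and -0.53 (SE 1.05). In CPM of all assigned reads, miR-99b-5p was at 2544, 2495 and 2872 in the ESC libraries and at 47.8, 88.4 and 93.1 in the Fb libraries. miR-125a-5p was at 226, 239 and 254 against 3.88, 7.36 and 11.7. For these miRNAs the ratio of the means was 34.5 and 31.3.

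On the same scale miR-99a-5p was at 46.4, 38.9 and 53.8 in the ESC libraries and at 4.88, 24.7 and 23.6 in the Fb libraries, 2.62 times higher in ESC exosomes by the means. miR-125b-5p was at 15.97, 17.3 and 11.9 against 1.38, 7.47 and 3.75. miR-100-5p was at 49.6, 50.5 and 55.1 against 18.1, 42.3 and 59.6, so that Fb replicate 3 lay above all ESC libraries and the groups overlapped. With tRNA genes left out of the total, the means for miR-100-5p were 250.2 in ESC and 259 in Fb exosomes. On all assigned reads 4 of the 5 had all ESC libraries above all Fb libraries, against 74.8% of the 325 miRNAs, with 10.5% higher in every Fb library and 85.2% without overlap in either direction. All 5 were lowest in Fb replicate 1 on this scale, the library with the smallest miRNA share.

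The seed families, which decide which messenger RNAs can be bound, were compared as sums. The strands with the seed ACCCGUA summed to 18754, 19482 and 20307 CPM in the ESC and to 11546, 7590 and 10265 CPM in the Fb libraries. Those with the seed CCCUGAG, miR-125a-5p, miR-125b-5p and miR-351-5p, summed to 1797, 2004 and 1888 CPM and to 1081, 797 and 1069 CPM. The ratio of ESC to Fb means was 1.99 for the first seed and 1.93 for the second. Both sums were higher in every ESC library, as were 24.9% of the 325 miRNAs. Of the 5 members, 3 were higher in every Fb library, as were 36% of the 325. In ESC exosomes miR-99b-5p made up 96.3% to 96.5% of the ACCCGUA reads. The sums contain the members, so their differences partly restate how the members were chosen.

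miR-351-5p, an X-linked miRNA of another cluster, was at 80.4, 73.0 and 79.5 CPM in the ESC and at 224, 73.0 and 168 CPM in the Fb libraries, and did not pass (edgeR adjusted p = 0.344, log2 fold change -0.50, SE 0.41). miR-6367 and miR-6394 had 0 reads in all 6 libraries, which allows up to 2.15 CPM in ESC and up to 61.2 CPM in Fb replicate 1. The related miR-10a-5p (edgeR adjusted p = 0.00188, log2 fold change 2.08, SE 0.33) and miR-10b-5p were higher in every ESC library, as were 24.9% of the 325 miRNAs. With all RNAs fitted together miR-10a-5p did not pass (3.08, SE 1.32, edgeR adjusted p = 0.200), while miR-10b-5p did (edgeR adjusted p = 0.0441).

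The 3p strands, which the choice of members did not use, were tested in the same fit. Of 6, 4 had enough reads to be tested, and 2 of these were higher in Fb exosomes, both from miR-125b hairpins. Over all 325 miRNAs 49.5% passed, 27.7% (90 miRNAs) as higher in Fb and 21.8% (71) as higher in ESC exosomes. The split was 103 and 52 with no TMM factors, where the median over all miRNAs moved to -0.52, and 16 and 53 when all RNAs were fitted together, where it was 1.15. As shares of all assigned reads, both miR-125b 3p strands were higher in every ESC library, as were 74.8% of the 325 miRNAs.

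miR-125b-1-3p, from chromosome 9, was at 1009, 944 and 1137 CPM in the ESC libraries and at 8628, 2550 and 3830 CPM in the Fb libraries. The Fb libraries differed more than 3-fold among themselves, and all 3 lay above the ESC libraries (edgeR adjusted p = 0.0108, log2 fold change -1.79, SE 0.42). The call was lost without ESC replicate 1 or 2 (edgeR adjusted p = 0.0798 and 0.0908).

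miR-125b-2-3p, from chromosome 16, was at 329.5, 319.8 and 339 CPM in the ESC libraries and at 2079.6, 1786 and 1885 CPM in the Fb libraries. The values were close within each group and did not overlap between them (edgeR adjusted p = 8.52e-04, log2 fold change -2.13, SE 0.28). When all RNAs were fitted together, neither 3p strand passed (miR-125b-1-3p -0.55, SE 0.99, edgeR adjusted p = 0.837; miR-125b-2-3p -1.45, SE 1.08, edgeR adjusted p = 0.505).

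On chromosome 17 neither 3p strand passed. miR-99b-3p was at 729, 669 and 638 CPM in the ESC libraries and at 1611, 809 and 1212 CPM in the Fb libraries. The groups did not overlap, with the Fb libraries higher, but the difference did not pass (edgeR adjusted p = 0.311, log2 fold change -0.39, SE 0.30), and its sign turned when all RNAs were fitted together (0.54, SE 0.99) or with no count filter (0.095, SE 0.48). miR-125a-3p was at 714, 715 and 920 CPM in the ESC libraries and at 1591, 146 and 336 CPM in the Fb libraries. Fb replicate 1 lay above all ESC libraries and the other two below them (edgeR adjusted p = 0.401, log2 fold change 0.77, SE 0.72). Without Fb replicate 1, miR-125a-3p passed as higher in ESC exosomes (edgeR adjusted p = 0.00284, log2 fold change 2.12, SE 0.39).

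The other 3p strands were too scarce to be tested. miR-99a-3p had 5.22, 8 and 11 estimated reads in the ESC libraries and 0, 16.9 and 6 in the Fb libraries. miR-100-3p had 1 to 4 reads in ESC and 0, 0 and 1 in Fb libraries. The rows of the 6 hairpins themselves held at most 5.74 estimated reads in any library, except that of mir-125a, with 10.0 reads in Fb replicate 1 and under 0.05 in each of the other libraries.

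**Figure D3:**
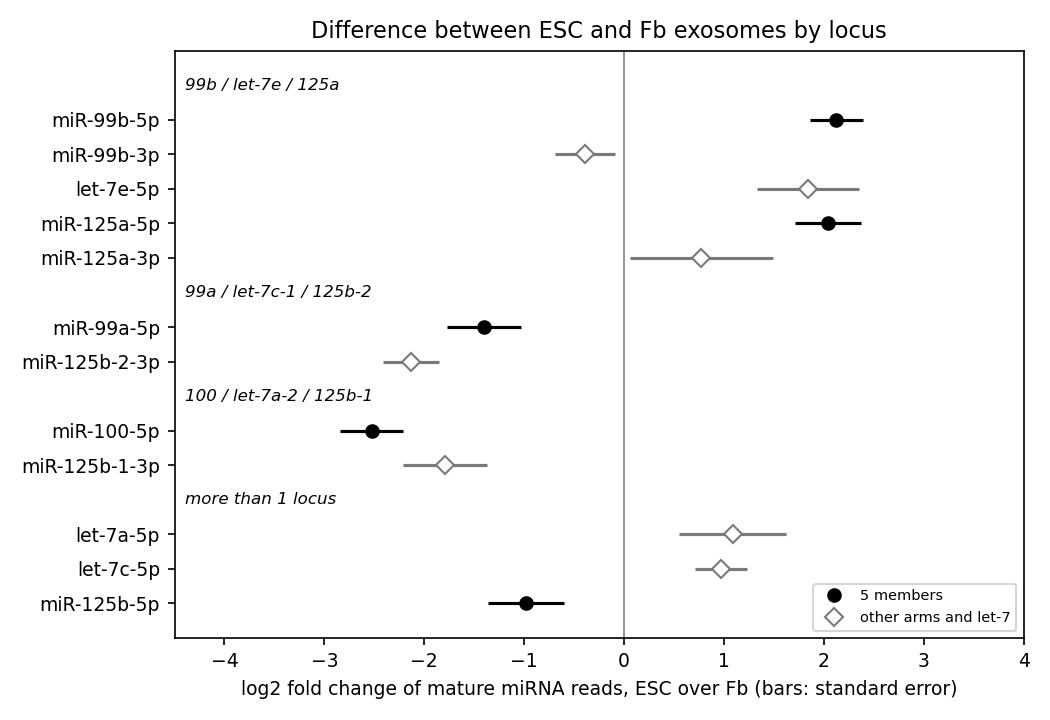
Log2 fold change of ESC over Fb (x axis, from shares of mature miRNA reads) with its standard error for each strand, grouped by cluster; filled circles are the 5 members and open diamonds the other strands and let-7. Values above 0 are higher in ESC exosomes: miR-99b-5p and miR-125a-5p lie near 2, and miR-99b-3p lies at -0.39. On chromosomes 16 and 9, the strands that name 1 gene and had enough reads to be fitted lie below -1.

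The ratio of 5p to 3p reads within a hairpin does not depend on how the groups are scaled. For the hairpins below the 5p strands are the members, which were chosen on the contrast of ESC with Fb. Differences in these ratios therefore partly restate that choice. Their p-values, and their place among other hairpins, are descriptions and no independent support. For miR-99b the 5p strand had 24.8, 28.1 and 30.7 times the reads of the 3p strand in the ESC libraries and 4.84, 5.34 and 4.48 times in the Fb libraries. These values did not overlap, and the log2 ratio was 2.51 higher in ESC exosomes (4.79 ± 0.154 against 2.28 ± 0.127, SD, n = 3; exact two-sided permutation p = 0.1, adjusted exact permutation p = 0.194). That p of 0.1 is the smallest that 3 against 3 libraries allows. Among the 95 hairpins with at least 10 reads of the arms together in every library, 51.6% did not overlap between the groups (30.5% higher in ESC, 21.1% higher in Fb) and 27 had a larger difference than miR-99b.

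For miR-125a the 5p strand had 2.25, 2.52 and 1.88 times the reads of the 3p strand in ESC libraries and 0.397, 2.47 and 2.03 times in Fb libraries (exact permutation p = 0.6, adjusted exact permutation p = 0.679). Fb replicate 1 was the only library in which the 3p strand had more reads. Without it the difference of the log2 ratios was -0.014, against 0.81 with all libraries.

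For miR-125b the 3p strands of the 2 genes together outnumbered the 5p strand in all 6 libraries. They had 11.8, 9.68 and 18.3 times the 5p reads in the ESC libraries and 47.7, 11.9 and 26.2 times in the Fb libraries. The groups overlapped (log2 ratio of 5p to 3p -3.67 ± 0.468 against -4.59 ± 0.980, SD, n = 3; exact permutation p = 0.2, adjusted exact permutation p = 0.322). In summed CPM the 3p strands reached 1359 ± 108 for ESC and 6919.7 ± 3352 for Fb (SD, n = 3). More 3p than 5p reads were counted for 41 of the 95 hairpins in ESC and 45 in Fb exosomes by the mean log2 ratio. A lower mean than that of miR-125b was found for 34 and 33 hairpins. The other hairpins had 1 row for each arm, so their ratios were not built as that of miR-125b was. The miR-125b-5p strand is shared by 2 genes, whereas each 3p strand names its gene. How reads with several matches were counted was not stated, and its part in this ratio was not tested.

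Of the hairpins of the members, miR-99a and miR-100 had the fewest 3p reads beside their 5p reads. The log2 ratio of 5p to 3p, with 0.5 read added to each, was 5.87 ± 0.400 in ESC and 4.86 ± 1.35 in Fb exosomes for miR-99a, and 7.72 ± 0.807 and 8.60 ± 0.799 for miR-100 (SD, n = 3). In each the groups overlapped (exact permutation p = 0.3, adjusted exact permutation p = 0.425 for both). In Fb replicates 1 to 3 miR-100-3p had 0, 0 and 1 reads, and miR-99a-3p had 0 in Fb replicate 1. Where the 3p reads are so few, the ratio is set largely by the added 0.5 read and by depth.

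**Figure D4:**
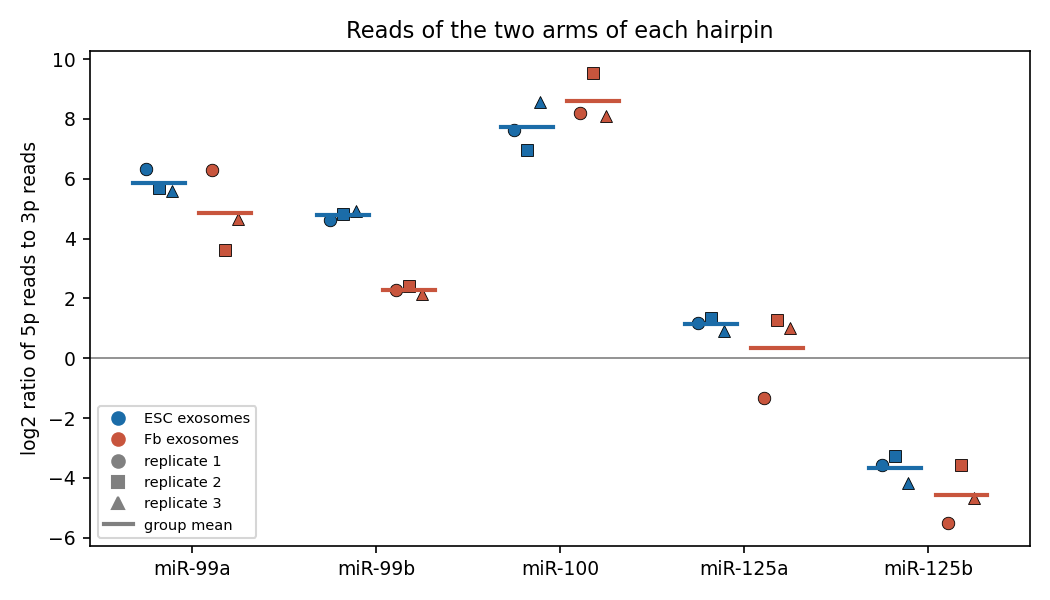
Log2 ratio of 5p to 3p reads (y axis) of each hairpin in every library, with the 3p reads of the 2 miR-125b genes summed; colours, shapes and bars are as in the plot of levels. miR-99b lies between 4.63 and 4.94 in ESC and between 2.16 and 2.41 in Fb libraries, miR-125b lies below 0 in all 6 libraries, and miR-125a lies below 0 in Fb replicate 1 only.

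The 3p strands also gave the balance between the miR-125b genes. miR-125b-1-3p, of chromosome 9, made up 75.4% (exact 95% interval 73.4 to 77.3), 74.7% (72.7 to 76.7) and 77.0% (75.2 to 78.8) of the 3p reads of both genes in the ESC libraries. It made up 80.6% (76.9 to 83.9), 58.8% (55.2 to 62.3) and 67.0% (63.3 to 70.5) in Fb replicates 1 to 3. The ESC libraries lay within the spread of the Fb libraries, whose intervals did not overlap one another (75.7% ± 1.20 against 68.8% ± 10.99, SD, n = 3; exact two-sided permutation p = 0.4).

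Reads that name 1 cluster, both strands together but without miR-125b-5p and let-7, were summed by cluster. The chromosome 17 cluster summed to 21118, 21992 and 22852 CPM in the ESC and to 11628, 5629 and 7653 CPM in the Fb libraries. The chromosome 16 cluster summed to 663, 619 and 713 CPM in the ESC and to 2875, 3089 and 3309 CPM in the Fb libraries. The chromosome 9 cluster summed to 1363, 1327 and 1512 CPM in the ESC and to 11586, 4618 and 7308 CPM in the Fb libraries. The first was 2.65 times higher in ESC exosomes, and the others were 4.65 and 5.59 times higher in Fb exosomes as shares of miRNA reads. These sums contain the members, so their differences partly restate how the members were chosen. By the means, miR-99b-5p alone held 18815 of the 21987 CPM of the chromosome 17 cluster in ESC exosomes. As shares of all assigned reads each cluster was higher in every ESC library, with ratios of 29.1, 2.03 and 2.03. On that scale 74.8% of the 325 miRNAs tested were also higher in every ESC library.

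The let-7 genes of the clusters could be followed by gene only on chromosome 17. let-7e-5p was at 1394, 1547 and 1519 CPM in the ESC libraries and at 1183, 253 and 370.0 CPM in the Fb libraries, higher in every ESC library (edgeR adjusted p = 0.0214, log2 fold change 1.84, SE 0.51). It had 0.859 to 0.879 reads for each of miR-125a-5p in ESC exosomes, and 1.87, 0.704 and 0.542 in Fb replicates 1 to 3. The call was lost without ESC replicate 2 or 3 (edgeR adjusted p = 0.0508 and 0.0773), with no TMM factors (0.0936) and with all RNAs fitted together (0.0632). let-7e-3p had 17, 44 and 35 estimated reads in ESC and 6, 1 and 0 in Fb libraries, with no difference that passed (edgeR adjusted p = 0.913, log2 fold change 0.18, SE 1.14).

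let-7c-5p and let-7a-5p come from several genes. The 3p strands that would name the cluster genes, let-7c-1-3p and let-7a-2-3p, had at most 1.00 and 1.67 estimated reads in any library. let-7c-5p was among the most abundant miRNAs, at 72471 ± 2584 CPM for ESC and at 48205 ± 6068 CPM for Fb exosomes, and let-7a-5p was at 2723 ± 97.3 and 1838 ± 1547 CPM (SD, n = 3). let-7c-5p was higher in ESC (edgeR adjusted p = 0.0198, log2 fold change 0.97, SE 0.26), a call that was lost without Fb replicate 3 (edgeR adjusted p = 0.132), with no TMM factors (0.0644) and with all RNAs fitted together (0.617), and let-7a-5p did not pass (1.09, SE 0.54, edgeR adjusted p = 0.129). Of the 9 let-7 family strands, 5 were higher in ESC, 0 in Fb and 4 did not pass, with a median log2 fold change of 1.03 against -0.11 over all miRNAs tested, of which 49.5% passed and 21.8% were higher in ESC. The 5 include let-7c-5p and let-7e-5p, with the losses given above. let-7c-5p therefore did not share the direction of miR-99a-5p and miR-125b-2-3p in shares of miRNA reads, although one of its genes lies between theirs.

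The miRNAs with the most similar profiles were found among 179 with a mean of at least 100 CPM, by the Euclidean distance between log2(CPM + 1) values centred on their mean, over the 6 libraries. For miR-99b-5p they were miR-30d-5p (0.440), miR-10a-5p (0.445) and its cluster partner miR-125a-5p (0.515). For miR-125a-5p they were miR-30d-5p (0.283), miR-1981-5p (0.324) and miR-10a-5p (0.402). For miR-100-5p the nearest was miR-125b-2-3p (0.663), from the other cluster, before miR-365-2-5p (0.867) and miR-574-3p (0.954). For miR-99a-5p they were miR-206-3p (0.237), miR-155-5p (0.278) and miR-27a-3p (0.545), and for miR-125b-5p miR-222-3p (0.509), let-7i-5p (0.647) and miR-27a-3p (0.687). The distance between the paralogs miR-99a-5p and miR-99b-5p was 4.40, and that between miR-125a-5p and miR-125b-5p 3.88. These pairs were chosen for going opposite ways, so their distances restate that choice. The values of 1 library share its group and its depth.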

How the data were processed

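Small RNA was sequenced from exosomes in 6 libraries, 3 from ESC and 3 from Fb, grouped by their titles. The values deposited by the authors are estimated counts, one per annotated RNA and library. The submitters' processing notes name FastQC, cutadapt and the build GRCm38. The aligner, the counter, strand use and the treatment of reads with several matches were not stated. Between 82.6% and 92.2% of nonzero values in a library were fractional, and they were rounded for the count fits only.

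Differences were fitted with edgeR 4.0.16 (R 4.3.3) by its quasi-likelihood test with Benjamini-Hochberg adjustment at 0.05 over all miRNAs tested. Library sizes were totals of mature miRNA reads with TMM factors, filterByExpr kept rows at a minimum count of 10 (total 15), and group was the single term. The SE is the size of the log2 fold change divided by the square root of F. Ratios and shares were compared by two-sided exact permutation (scipy 1.17.1), with ratios adjusted over 95 hairpins and 0.5 read added to each arm. Intervals are exact Clopper-Pearson at 95%. The reads have no molecular identifiers, so intervals and the limit of 3 reads cover counting error only. Fits were tested on simulated data with the same dispersion for every miRNA and library, a setting that does not test the choice of scaling.

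Alternatives were DESeq2 1.42.0, limma-trend (limma 3.58.1), other scalings and count filters, the replicate number as a block, and each library left out. The members and lists were chosen with earlier results of these data known. The miRNAs named are the members, the other strands of their hairpins, the let-7 of the clusters, miRNAs with the same seed, miR-10a-5p and miR-10b-5p, the hairpin rows, the host genes and the RNAs that overlap the hairpins, cell type markers listed at 0 or alone in their list, and the 3 nearest profiles of each member.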

Additional observations from a re-analysis of the deposited data

How the results depend on the processing

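Of 364 values recomputed under alternatives, 325 were taken as kept: they had the same direction and side of the threshold or, for values without a test, stayed within the spread between replicates. The permutation tests cannot reach the threshold with so few libraries, so arm ratios and the share of miR-125b-1-3p were judged by direction only. For ratios of mean CPM, leaving out a library can hardly move a value beyond the spread between replicates, so those values were kept almost by design. The number of calls was judged by its ratio to that of the main fit. Sizes of tested values and the number of calls could still move. Where a value changed, the cause was not tested. With all RNAs fitted together 69 of 307 miRNAs passed, against 161 of 325, and the log2 fold changes (ESC over Fb) were -0.90 for miR-99a-5p, 3.01 for miR-99b-5p, -1.74 for miR-100-5p and 2.92 for miR-125a-5p. In that fit miR-99b-3p turned to 0.54, miR-125b-1-3p (-0.55), miR-125b-2-3p (-1.45), let-7c-5p (1.52) and let-7e-5p (3.30) did not pass, and let-7e-3p passed at 2.60. With no count filter they were -0.94 for miR-99a-5p, 2.60 for miR-99b-5p and -2.05 for miR-100-5p, miR-99b-3p turned to 0.095 and let-7a-5p passed at 1.57. With miRNA totals alone they were 1.69 for miR-99b-5p and -2.94 for miR-100-5p, let-7c-5p (0.59) and let-7e-5p (1.35) did not pass, and let-7e-3p turned to -0.25, as it did in DESeq2 (-0.14).

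With the replicate block 114 miRNAs passed and let-7c-5p did not (1.00). Same-numbered libraries did not deviate together (correlations -0.26, -0.11 and -0.13), so the numbers were not taken as pairs. Leaving out 1 library moved the number that passed from 103 (without Fb replicate 3) to 213 (without Fb replicate 1), through 107, 108 and 117 without ESC replicates 3, 1 and 2 and 153 without Fb replicate 2. The log2 fold changes then ranged from -1.11 to -0.34 for miR-125b-5p, 0.55 to 2.12 for miR-125a-3p, -1.92 to -1.23 for miR-125b-1-3p, 1.02 to 1.89 for let-7a-5p (which passed without Fb replicate 1), 0.88 to 1.29 for let-7c-5p, 1.76 to 2.65 for let-7e-5p and -0.33 to 3.01 for let-7e-3p. The difference of the miR-125a arm ratios ranged from -0.014 to 1.29. Without tRNA in the total, the log2 ratio of all-read means was -0.049 for miR-100-5p, against 0.37, and 0.53 for the chromosome 9 cluster. Without the 3 most abundant miRNAs the chromosome 16 cluster was at -2.36. Depth was lowest in Fb replicate 1, where 3 reads are worth 61.2 CPM and miR-125b-5p had 11 reads.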
